A study of Mus musculus with 69 samples.

Results

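Lipid droplets are the cell's stores of neutral fat, and 10 mouse genes that build, coat or empty them were followed here: Plin2, Plin3, Hilpda, G0s2, Pnpla2, Lipe, Mgll, Dgat1, Dgat2 and Soat1. They were chosen by gene symbol, and each of the 10 symbols matched 1 row among the 54532 genes of the table for cultured microglia. Each also matched 1 row in both hippocampal tables. The study asked how Tlr7, an endosomal receptor for single-stranded RNA, bears on sex differences in demyelination, as its title states.

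The main experiment held 24 libraries of primary microglia from pups of postnatal day 1 to 3, with 3 libraries in each of 8 groups. The groups crossed sex, genotype (WT, or TLR7:-/-, called Tlr7 KO below) and treatment (DMSO as the control, or myelin). A second experiment held 28 libraries of WT hippocampus with 7 in each group: males of 12.12 months and females of 9.60 months, given saline or gardiquimod, a TLR7 agonist. The last held 17 hippocampal libraries of mice labelled PSUK+, treated with a control or a TLR7 inhibitor: 3 female and 3 male controls, 5 females and 6 males with inhibitor. The PSUK+ mice were 5.50 to 6.85 months old and carried the PSUK+ genotype in every group, controls included. Their ages were not balanced. All 3 male controls were 5.50 months old, as were 5 males with inhibitor, and 1 was 6.06. Of the female controls 2 were 5.50 and 1 was 6.85 months old. Of the females with inhibitor 1 was 5.50, 2 were 6.06 and 2 were 6.85. Age and sex cannot be told apart in the WT hippocampus, where all males were older than all females. What the PSUK allele is, the name of the inhibitor, the promoter behind any transgene, the doses, the amount of myelin and the exposure time were not given in the sources used here. Nor do the labels say whether the 3 microglia libraries of a group came from separate cultures or pools of pups, so the p-values measure the spread between these libraries, which may be technical.

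As background, diacylglycerol acyltransferases and a sterol acyltransferase make the triglyceride and cholesteryl ester that fill a droplet, perilipins coat it, and a chain of 3 lipases takes triglyceride apart. Small inhibitor proteins hold back the first lipase of that chain. Microglia that engulf myelin take in large amounts of cholesterol and fatty acid, and droplet formation is one way in which phagocytes are known to handle such a load.

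The libraries held 15277642 to 21275491 counted reads in microglia, 14332532 to 23477906 in WT hippocampus and 14377831 to 21033158 in PSUK+ hippocampus. Values are in CPM, read counts scaled to each library's total over the tested genes after TMM scaling. The kit reads the 3′ end of each transcript, so a level does not grow with transcript length and levels of different genes are compared as 3′ reads on the CPM scale. Tlr7 served as the check of the genotype labels: it stood at 167 to 197 CPM in the 12 WT libraries and at 1.25 to 2.76 CPM in the 12 KO libraries. Microglial markers summed to 6035 to 7162 CPM in the cultures, and all 11 were detected. In the hippocampal libraries, whose tissue label reads hippocampus, neuronal markers summed to 9021 to 15490 CPM and microglial markers to 242 to 552 CPM, so those libraries measure mixed tissue although the extraction text speaks of microglia. The labels give the molecule as nuclear RNA for all 69 libraries. In such bulk samples fewer cells of a type and less RNA per cell cannot be told apart.

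The promoters of the 3 members with the largest differences are shown first, because these genes carried the results on myelin and genotype. On GRCm38 (GENCODE M21) the genes span chr4:86648386-86670060 (Plin2), chr6:29272488-29275446 (Hilpda) and chr6:88724412-88828360 (Mgll). Each is the 250 bases before a RefSeq start on GRCm38.p6, read 5′ to 3′ on the gene's strand. Plin2 lies on the minus strand at chr4:86670060-86670309, Hilpda on the plus strand at chr6:29272376-29272625 (the downstream one of its 2 listed starts) and Mgll on the plus strand at chr6:88724162-88724411 (the upstream one of 2). Capitals mark ACGTG, 1 form of the core bound by hypoxia-inducible factors, and AGGTCA, a half-site of nuclear receptors. Each was searched on both strands (TGACCT is AGGTCA read from the other strand). Other forms of the hypoxia core were neither searched nor marked.
Plin2: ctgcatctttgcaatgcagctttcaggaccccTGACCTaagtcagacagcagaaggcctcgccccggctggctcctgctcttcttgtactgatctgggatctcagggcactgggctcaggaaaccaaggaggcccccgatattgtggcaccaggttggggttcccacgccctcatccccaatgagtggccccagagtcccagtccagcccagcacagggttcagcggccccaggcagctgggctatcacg
Hilpda: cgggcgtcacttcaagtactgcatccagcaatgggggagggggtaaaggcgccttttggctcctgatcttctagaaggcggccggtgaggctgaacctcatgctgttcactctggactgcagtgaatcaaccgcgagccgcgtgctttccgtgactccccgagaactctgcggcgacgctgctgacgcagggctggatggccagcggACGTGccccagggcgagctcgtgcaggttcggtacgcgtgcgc
Mgll: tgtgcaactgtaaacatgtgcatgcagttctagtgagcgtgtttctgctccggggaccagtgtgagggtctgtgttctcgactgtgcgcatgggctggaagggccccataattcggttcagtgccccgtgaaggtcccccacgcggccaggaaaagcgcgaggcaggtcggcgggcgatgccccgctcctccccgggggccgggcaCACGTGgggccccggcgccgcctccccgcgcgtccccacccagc
The Plin2 window held 1 AGGTCA half-site, on the minus strand of the gene at positions -218 to -213 before the start. The Hilpda window held ACGTG at -43 to -39. In the Mgll window ACGTG was found on both strands at -44 to -39, where the overlapping matches form the E-box CACGTG. Such matches are common: ACGTG occurred in 16.57% and AGGTCA in 14.02% of 32851 promoter windows of the same length. Over the 11 windows listed for 8 of the members, ACGTG occurred in 4: 1 of the 2 of Hilpda, 1 of the 2 of Lipe and both of Mgll. The other listed Hilpda start, further upstream, lacks it in its window. AGGTCA occurred in that of Plin2. The full PPAR repeat of 2 such half-sites (DR1) and the LXR repeat (DR4), both searched on both strands, were in none of the 11, and in 0.03% and 0.02% of all windows. TCACNCCAC, a sterol response element, was in none of the 11 and in 1.05% of all windows. These letters describe the windows and say nothing on which factor was bound.

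Resting microglia carried the parts of the droplet at very different levels. Plin2, the perilipin that coats nearly all droplets outside fat tissue, was the most abundant member, at 1168 to 1386 CPM in the 12 DMSO libraries, where it ranked 61 to 68 among 14468 tested genes in the 4 groups. Soat1, the enzyme that esterifies cholesterol in the endoplasmic reticulum, followed at 550 to 651 CPM. Plin3, a perilipin that moves between cytosol and droplets, stood at 126 to 158 CPM. Pnpla2, which encodes the first triglyceride lipase (ATGL), lay at 74.8 to 86.5 CPM. These 4 ranges did not overlap in DMSO.

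Below them, Mgll, the lipase of the last step that frees glycerol, was at 23.4 to 49.3 CPM. Hilpda, a small inhibitor of Pnpla2 that hypoxia and fatty acids are known to induce, was at 32.4 to 41.8 CPM. Their ranges overlapped, and Mgll spread more widely because its level differed by genotype. Dgat1 was at 19.01 to 23.97 CPM and Lipe, the hormone-sensitive lipase of the middle step, at 10.04 to 14.07 CPM. Dgat2, the other triglyceride-forming acyltransferase, was near the limit of detection with 0.704 to 1.61 CPM, or 11 to 27 reads a library.

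G0s2, another inhibitor of Pnpla2, was below the limit for testing in microglia: its counts ran from 0 to 9 reads a library over all 24 libraries, and it was 0 in 3 of them. It therefore has no test there, and 9 of the 10 members entered the fit. Reads of G0s2 and Lipe are also uncertain, because each gene lies inside a gene on the opposite strand that covers its 3′ end (Lamb3 for G0s2, the antisense gene 4732471J01Rik for Lipe), and whether counting used strand was not given in the sources used here. The ratio of Dgat1 to Dgat2 ranged from 14.7 to 35.2 over the 24 libraries.

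**Figure D1:**
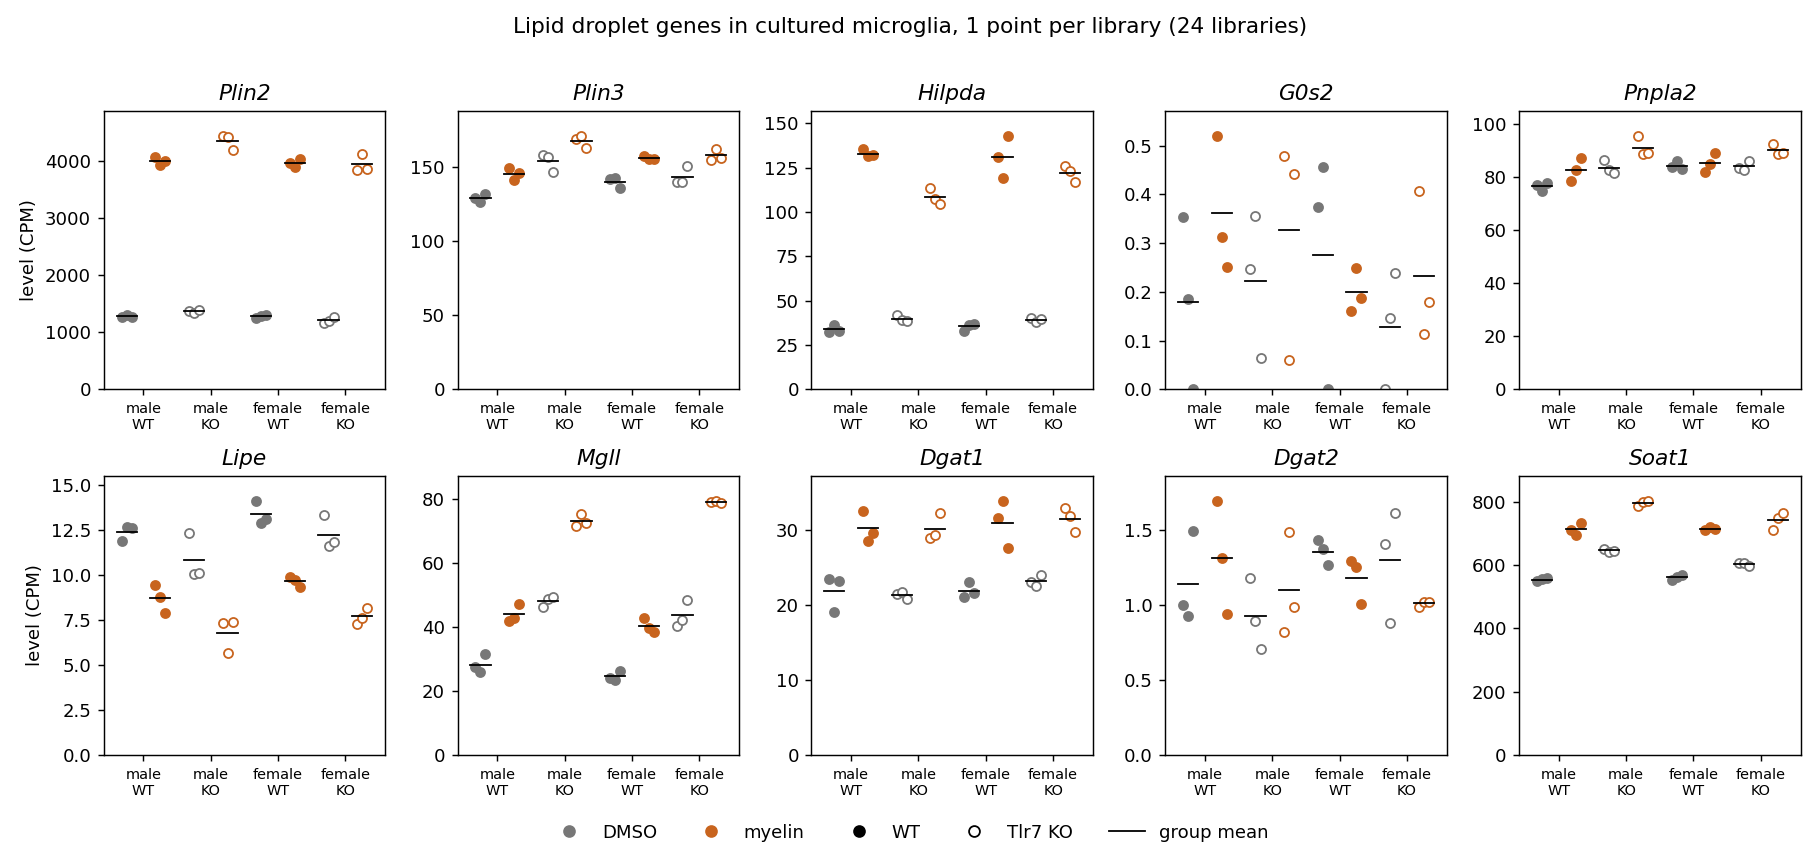
Level of each of the 10 genes (CPM, linear axis from 0) in the 24 microglia libraries, grouped by sex and genotype; grey points are DMSO, orange points myelin, filled WT, open Tlr7 KO, and black lines the means of 3 libraries. Plin2 and Hilpda separated by treatment in every group (Plin2 at most 1386 CPM in DMSO and at least 3844 in myelin), and Mgll separated by both treatment and genotype.

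The comparison of myelin with DMSO asked what feeding on myelin did to these genes, separately in each sex and genotype. The coat gene Plin2 and the lipase inhibitor Hilpda rose most, 3.09- to 3.25-fold and 2.73- to 3.92-fold. Mgll, Dgat1, Soat1 and Plin3 rose by smaller amounts in all 4 cultures, and Lipe fell in all 4. Of the 9 tested members, 8 were called in male WT, 7 in female WT, 8 in male KO and 7 in female KO, with Lipe lower and every other called member higher. A call is an adjusted p (edgeR quasi-likelihood test, Benjamini-Hochberg over all tested genes) under 0.05. Of all tested genes 39.3% were called in WT males, 40.4% in WT females, 38.2% in KO males and 41.2% in KO females. Treated and control libraries did not overlap for 8 members in male WT and 7 in female WT, where 49.3% of all genes did not overlap in either, and for 8 in male KO (46.4%) and 8 in female KO (47.6%). The median log2 fold change of the 9 members was 0.37 and 0.35 in WT males and females and 0.30 in both KO cultures, and that of all tested genes lay between -0.01 and 0.01.

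Plin2 stood at 1267, 1314 and 1265 CPM in the male WT libraries with DMSO and at 4076, 3943 and 4003 CPM with myelin. In female WT it was 1254, 1297 and 1308 CPM with DMSO and 3978, 3907 and 4042 CPM with myelin. In male KO the DMSO libraries held 1374, 1343 and 1386 CPM and the myelin libraries 4445, 4420 and 4191 CPM. In every culture all myelin libraries lay far above all DMSO libraries. In female KO the levels were 1168, 1206 and 1267 CPM with DMSO and 3844, 4121 and 3872 CPM with myelin. The log2 fold changes were 1.64 ± 0.03 (SE) in male WT, 1.63 ± 0.03 in female WT, 1.67 ± 0.03 in male KO and 1.70 ± 0.03 in female KO, with edgeR adjusted p between 4.25e-45 and 3.44e-44. With myelin, Plin2 ranked 17 or 18 among the 14468 tested genes, and its change was larger in size than that of 97.9% to 98.4% of them.

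Plin2 thereby came to dominate the set. It made up 55.2% to 60.7% of the summed CPM of the 10 genes in DMSO and 75.7% to 77.8% with myelin, and the sum itself went from 2117 to 2393 CPM up to 5050 to 5721 CPM. The ratio of Plin2 to Plin3, the 2 perilipins detected at more than a few CPM, was 8.36 to 10.4 with DMSO and 24.8 to 27.9 with myelin.

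Hilpda was measured at 32.4, 36.6 and 32.8 CPM in male WT with DMSO and at 135, 132 and 132 CPM with myelin. In female WT it was 33.0, 36.5 and 37.2 CPM with DMSO and 131, 119 and 143 CPM with myelin. These correspond to 3.92-fold and 3.68-fold rises (log2 1.97 ± 0.06 and 1.88 ± 0.05). In male KO, Hilpda was 41.8, 39.02 and 38.5 CPM with DMSO and 114, 107 and 105 CPM with myelin. In female KO it was 40.3, 38.2 and 39.7 CPM with DMSO and 126, 123 and 117 CPM with myelin. The groups did not overlap in either KO culture, and the rises were 2.73-fold and 3.10-fold (log2 1.45 ± 0.05 and 1.63 ± 0.05). The ratio of Hilpda to Pnpla2, the lipase it inhibits, was 0.393 to 0.489 with DMSO and 1.17 to 1.72 with myelin.

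Among the lipases, the first, middle and last steps behaved differently. Mgll rose by 0.64 ± 0.07, 0.72 ± 0.07, 0.60 ± 0.06 and 0.86 ± 0.06 on the log2 scale (WT males, WT females, KO males, KO females). Lipe fell in the same order, with log2 values of -0.51 ± 0.11, -0.47 ± 0.11, -0.67 ± 0.12 and -0.67 ± 0.11. All Lipe libraries with myelin (5.65 to 9.89 CPM) lay below all those with DMSO (10.04 to 14.07 CPM). Pnpla2 was called only in males, with log2 fold changes of 0.11 ± 0.04 in WT and 0.12 ± 0.04 in KO. It missed the threshold in females, at 0.02 ± 0.04 in WT and 0.10 ± 0.04 in KO (edgeR adjusted p 0.804 and 0.0607). The sex difference of the Pnpla2 response was itself not called in WT (-0.10 ± 0.06) or in KO (-0.02 ± 0.06). The male WT call of Pnpla2 held in 3 of 12 alternative analyses.

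On the synthesis side, Dgat1 rose by 0.46 ± 0.08, 0.50 ± 0.08, 0.50 ± 0.08 and 0.44 ± 0.08 on the log2 scale, in that order again. Soat1 went from 550, 555 and 558 CPM to 712, 696 and 734 CPM in male WT, and its log2 changes over the 4 cultures were 0.37, 0.35, 0.30 and 0.30, each ± 0.03. Plin3 rose least of the genes called in all 4 cultures, by 0.17, 0.16, 0.12 and 0.14 (each ± 0.04). Groups did not overlap for Soat1 or Plin3 within any culture. Dgat2 was not called in any culture, with log2 values from -0.34 to 0.25 and standard errors of 0.33 to 0.36, so a change of the size seen for Dgat1 was not detectable for Dgat2 at this depth. With Ttr and Pdgfra (transcripts of other cells) as covariates, Plin3 kept its log2 values in male and female KO (0.12 and 0.14) but not its calls (edgeR adjusted p 0.0528 and 0.227). Nor were Lipe in female KO (-0.55, 0.105) and Pnpla2 in male KO (0.13, 0.0823) called in that fit. Pdgfra, a marker of oligodendrocyte precursors, itself fell with myelin in all 4 cultures, with called log2 values from -0.95 to -0.28. The mean sum of the precursor markers rose in all 4.

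The added myelin also came with oligodendrocyte transcripts. Of the 10 markers of that cell type, 8 reached a mean of 1 CPM, none was at 0 throughout a group, and their sum was 187 to 308 CPM in the DMSO libraries and 527 to 890 CPM in the myelin libraries. Mobp went from 1.89 to 4.79 CPM in DMSO to 96.5 to 197 CPM with myelin. Microglial markers summed to 6756 to 7162 CPM with DMSO and 6035 to 6664 CPM with myelin. Markers of peripheral macrophages, mostly Lyz2, summed to 22178 to 27506 CPM with DMSO and 15109 to 21356 CPM with myelin. The part of these transcripts in the myelin results was not tested.

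**Figure D2:**
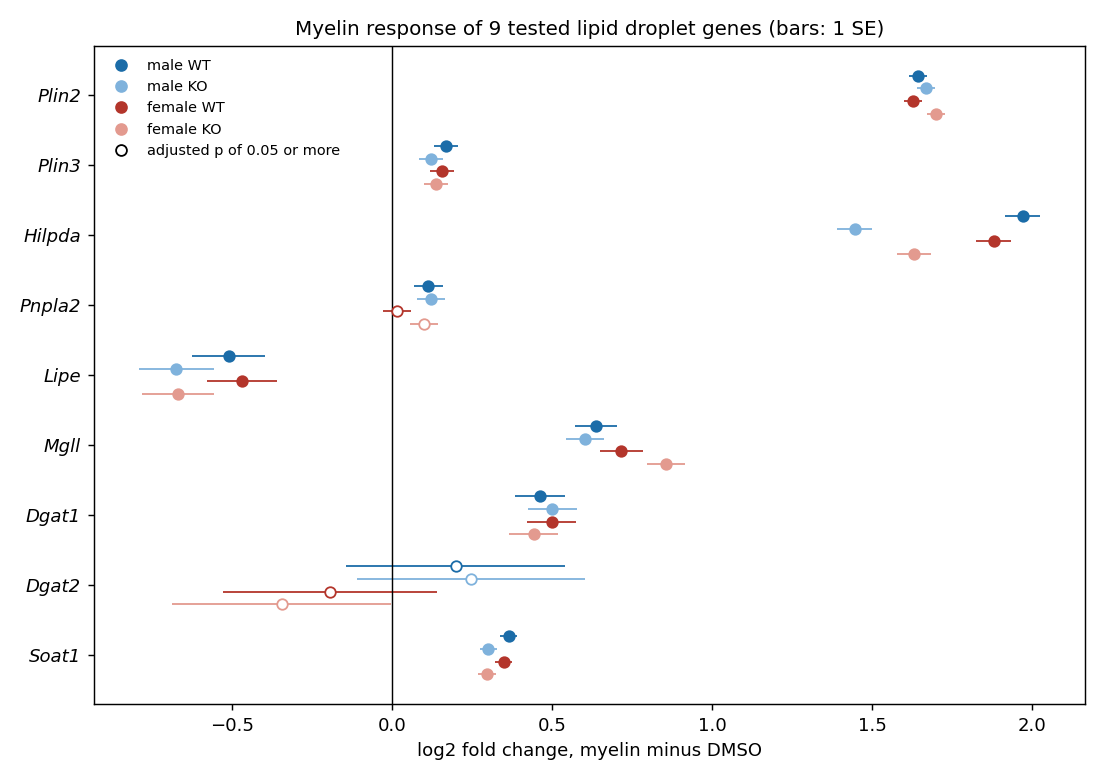
Log2 fold change of myelin over DMSO (x axis) for the 9 tested genes in the 4 microglia cultures, with bars of 1 standard error; filled points passed an adjusted p of 0.05 and open points did not. Plin2 lay at 1.63 to 1.70 and Hilpda at 1.45 to 1.97, Lipe lay below 0 in all 4 cultures, and Dgat2 had the widest bars.

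The rest of the pathway was described by 6 lists of genes, whose choice was made with earlier results of these data known. Of 20 genes of fatty acid oxidation, all tested, 14, 13, 15 and 13 rose and 1 fell in each culture (WT males, WT females, KO males, KO females). Acadl, a long-chain acyl-CoA dehydrogenase, rose by 0.80 to 0.86 on the log2 scale, and Cpt1a, which commits fatty acids to the mitochondrion, by 0.55 to 0.61. Of 17 genes of fatty acid uptake, binding and activation, 9, 9, 8 and 9 rose and 2 fell in each. Fabp4 rose by 0.93 to 1.11 and Acsl1 by 0.82 to 1.14.

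Of 18 tested PPAR and hypoxia targets and regulators, 10, 10, 8 and 9 rose and 1, 3, 2 and 1 fell. Angptl4, a secreted inhibitor of lipoprotein lipase, rose by 2.65 to 3.08, more than Plin2 or Hilpda, from 7.56 to 9.44 CPM up to 55.7 to 64.2 CPM (group means). Hif1a rose by 0.38 to 0.63. Of 12 tested genes of glycerolipid synthesis before the DGAT step, 7, 6, 6 and 7 rose and 2 fell in each. Agpat1 and Agpat2 rose by 0.20 to 0.31, and Lpin1, a phosphatidate phosphatase, fell, with log2 values between -1.25 and -1.09.

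Among 11 tested genes of other lipolysis and lysosomal hydrolysis, 3, 4, 2 and 3 rose and 4, 5, 5 and 5 fell. Ddhd1 rose by 0.45 to 0.53, while Lpl, lipoprotein lipase, fell, with log2 values between -0.31 and -0.17, from DMSO group means of 6836 to 7136 CPM. Among 12 tested genes of other droplet proteins, 3, 3, 4 and 4 rose and 3, 3, 5 and 4 fell. There Acsl3, an acyl-CoA synthetase of nascent droplets, fell, with log2 values between -2.04 and -1.80. Bscl2 (seipin) rose by 0.15 to 0.19. These counts stand against the 38.2% to 41.2% of all genes called in the same comparisons.

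Across all 24 microglia libraries, the genes whose log2 CPM followed that of Plin2 most closely were Abcg1 (Pearson r 0.995), Nomo1 (0.995), Mylip (0.995), Tubb6 (0.993) and Tmem120a (0.993), out of 8345 genes with a mean of at least 10 CPM. Abcg1 exports cholesterol from the cell. The 24 points share the treatment contrast and the same libraries, so the values describe likeness in these libraries.

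The comparison of Tlr7 KO with WT asked whether loss of the receptor moved the same genes, in each sex and treatment. Mgll was the clearest difference: it was higher in KO in all 4 settings, by 1.66- to 1.96-fold. The other members differed by at most 0.36 on the log2 scale in either direction, and Dgat1 and Dgat2 were called in no setting. In males, 6 of 9 tested members were called with DMSO (all higher) and 7 with myelin (5 higher, 2 lower). Without male KO DMSO replicate 1, 3 were called in males with DMSO. In females, 3 were called with DMSO (2 higher, 1 lower) and 1 with myelin. Of all tested genes 20.9% were called for males with DMSO (11.6% higher, 9.32% lower), 11.9% for females with DMSO (5.42% and 6.48%), 20.6% for males with myelin (10.1% and 10.6%) and 7.28% for females with myelin (3.80% and 3.48%). KO and WT libraries did not overlap for 6 and 3 members with DMSO in males and females (35.2% and 26.3% of all genes), and for 7 and 2 with myelin (34.5% and 22.6%). Median log2 values of the 9 members were 0.13 and 0.04 with DMSO in males and females and 0.12 and 0.02 with myelin, while those of all genes were between -0.01 and 0.01.

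Mgll in males with DMSO was 27.4, 25.8 and 31.5 CPM in WT and 46.1, 48.8 and 49.3 CPM in KO. With myelin the male libraries held 41.9, 42.9 and 47.1 CPM in WT and 71.5, 75.2 and 72.5 CPM in KO. In females with DMSO the values were 24.03, 23.5 and 26.2 CPM in WT and 40.3, 42.3 and 48.3 CPM in KO. All KO libraries exceeded all WT libraries of the same sex and treatment. With myelin the female libraries held 42.9, 39.8 and 38.4 CPM in WT and 79.0, 79.3 and 78.7 CPM in KO. The log2 differences were 0.77 ± 0.07, 0.73 ± 0.06, 0.83 ± 0.07 and 0.97 ± 0.06 for male DMSO, male myelin, female DMSO and female myelin, with edgeR adjusted p of 3.69e-14, 1.90e-14, 9.55e-15 and 4.53e-19. Mgll with DMSO in KO (40.3 to 49.3 CPM) was about as high as with myelin in WT (38.4 to 47.1 CPM), and myelin and genotype together gave the highest levels. The genotype difference of the Mgll myelin response was -0.03 ± 0.09 in males and 0.14 ± 0.09 in females and was not called in either.

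The remaining lipases went in opposite directions in male KO with myelin, where both were called. Pnpla2 was higher in male KO by 0.13 ± 0.04 with DMSO and 0.14 ± 0.04 with myelin, and in female KO its differences were -0.01 ± 0.04 and 0.08 ± 0.04, neither called. Lipe was lower in KO in male myelin by a called -0.36 ± 0.12, and its other values were -0.19, -0.13 and -0.33 in male DMSO, female DMSO and female myelin. The Lipe call held in 5 of 12 alternative analyses, and the male DMSO call of Pnpla2 in 3 of 12.

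Plin2, Plin3 and Soat1 were called in male KO with both treatments. In male KO, Plin2 was higher by 0.09 ± 0.03 with DMSO and 0.12 ± 0.03 with myelin, and Plin3 by 0.25 ± 0.04 and 0.20 ± 0.04. Soat1 was higher by 0.22 ± 0.03 and 0.16 ± 0.03, from 550 to 558 CPM in WT to 643 to 651 CPM in KO with DMSO. In female KO, Plin2 was lower with DMSO by -0.08 ± 0.03 and gave -0.01 ± 0.03 with myelin. The Plin2 call with DMSO held in 7 of 12 alternative analyses in males and in 3 of 12 in females. In males it held in 2 of the 6 fits that left out 1 library. The male Plin2 call with myelin held in 11 of 12 alternatives. Plin3 gave 0.04 and 0.02 in females (each ± 0.04), neither called, and Soat1 was higher by 0.10 ± 0.03 with DMSO but not called with myelin (0.05 ± 0.03).

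The difference between the sexes in the KO effect was itself tested. With DMSO it was called for Plin2 (-0.18 ± 0.04, edgeR adjusted p 0.00171), Plin3 (-0.22 ± 0.05, 0.00569) and Soat1 (-0.12 ± 0.04, 0.0467), so that the KO difference of Plin3 and Soat1 was smaller in females and that of Plin2 had the opposite sign there. That is 3 of 9 members beside 7.53% of all tested genes. With myelin it was called for Plin2 (-0.13 ± 0.04) and Plin3 (-0.19 ± 0.05), 2 of 9 beside 6.51%. With myelin it was 0 of 9 without female WT myelin replicate 1 or without male KO myelin replicate 2, and 1 without male WT myelin replicate 3. The Soat1 call with DMSO held in 3 of 18 alternative analyses.

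Hilpda changed direction with treatment. With DMSO it was higher in male KO by 0.23 ± 0.06, at 38.5 to 41.8 CPM against 32.4 to 36.6 CPM in WT. With myelin it was lower in male KO by -0.29 ± 0.05, at 105 to 114 CPM against 132 to 135 CPM in WT. Neither pair of groups overlapped. The resulting difference of the myelin response was -0.52 ± 0.08 in males (edgeR adjusted p 8.06e-06), the only member called there, beside 2.56% of all genes. In females the values were 0.14 ± 0.06 with DMSO and -0.10 ± 0.05 with myelin, neither called, and the difference of the response was -0.25 ± 0.08 (adjusted p 0.124). No member was called there, beside 0.919% of all genes. For Plin2 the same difference was 0.03 ± 0.04 in males and 0.07 ± 0.04 in females, and neither was called (adjusted p 0.873 and 0.560).

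**Figure D3:**
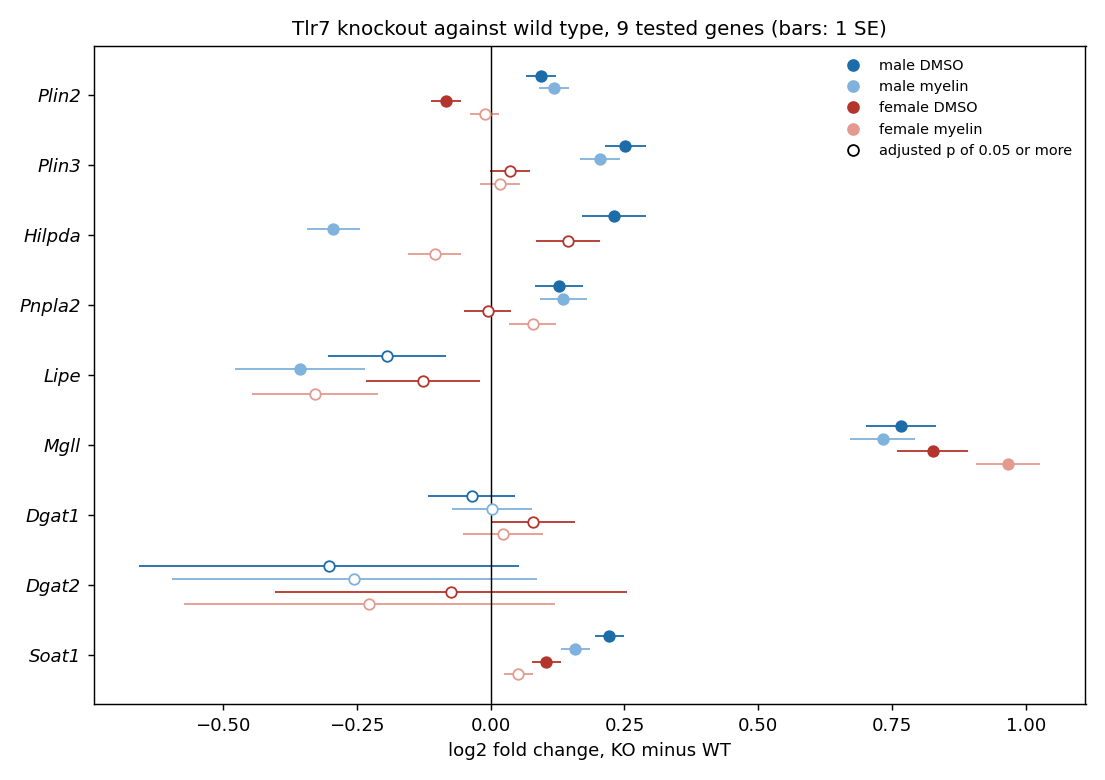
Log2 fold change of Tlr7 KO over WT (x axis) for the 9 tested genes by sex and treatment, with bars of 1 standard error; filled points passed an adjusted p of 0.05 and open points did not. Mgll lay at 0.73 to 0.97 in all 4 settings, and Hilpda in males lay at 0.23 with DMSO and at -0.29 with myelin.

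Transcripts of other cells differed between the genotypes as well. Oligodendrocyte precursor markers, 3 of 5 at a mean of 1 CPM or more, summed in females to 55.6 to 59.3 CPM in WT and 91.4 to 103 CPM in KO with DMSO, and to 69.9 to 76.6 CPM and 111 to 120 CPM with myelin. In males they summed to 89.6 to 97.1 CPM and 89.9 to 102 CPM with DMSO, and to 104 to 116 CPM and 116 to 128 CPM with myelin. The 6 choroid plexus markers, 5 of them at a mean of 1 CPM or more and none at 0 throughout a group, summed to 128 to 223 CPM in male WT libraries and 4.46 to 22.1 CPM in male KO libraries. In females the sum was 84.2 to 214 CPM in WT and 44.1 to 537 CPM in KO. Ttr, the most abundant marker of that list, had group means of 166 to 179 CPM in male WT, 9.82 to 10.3 CPM in male KO, 115 to 135 CPM in female WT and 199 to 228 CPM in female KO. Markers of fibroblasts and pericytes, 3 of 7 at a mean of 1 CPM or more, summed to 13.4 to 30.3 CPM in male WT and 3.93 to 9.17 CPM in male KO, where 2 of the 7 were at 0, and to 6.97 to 18.7 CPM over the female groups. Markers of peripheral macrophages, with Ccr2 at no more than 6.62 CPM, summed to 22178 to 22939 CPM in male WT and 25801 to 27506 CPM in male KO with DMSO, and to 23212 to 24040 CPM and 24757 to 26673 CPM in female WT and KO. With myelin they summed to 15109 to 16272 CPM in male WT, 20780 to 21356 CPM in male KO, 16167 to 17348 CPM in female WT and 17790 to 18729 CPM in female KO. These sums were mostly Lyz2, so they are not read as a measure of peripheral macrophages in the cultures.

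With Ttr and Pdgfra, a marker of oligodendrocyte precursors, as covariates, the members called in male KO went from 6 to 1 with DMSO. With myelin they went from 7 to 1, and the 1 left in each was Mgll. The share of all tested genes called in that fit is not given here, so the drop is not read as particular to the members. Pdgfra itself was lower in male KO, by -0.84 ± 0.12 with DMSO and -1.02 ± 0.12 with myelin. The mean sum of the precursor markers was not lower there. In males neither Ttr nor Pdgfra overlapped between WT and KO, so the fit with covariates cannot separate them from genotype. The log2 value of Plin3 in that fit was 0.21 with DMSO and 0.17 with myelin, against 0.25 and 0.20 without covariates, with adjusted p of 0.141 and 0.405. Soat1 was 0.14 and 0.06, against 0.22 and 0.16. Those called for the sex difference of the KO effect went to 0 in both treatments. In that fit the male DMSO difference of Plin2 turned to -0.011 and the sex difference of the KO effect of Soat1 with DMSO to 0.0064. The KO difference of Mgll was called in all 12 alternatives of each of the 4 settings, with log2 values between 0.56 and 1.02. The male difference of the Hilpda myelin response was called in 18 of 18, between -0.58 and -0.46.

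Among the 6 other gene lists, the genes named here were called in all 4 KO settings in 1 direction, with at most 2 taken per list by size of change. They were Fabp3 (0.32 to 0.64) and Fabp4 (0.31 to 0.63), which carry fatty acids in the cytosol, Lipa (0.16 to 0.40), the lysosomal acid lipase, Acadl (0.16 to 0.26), Mettl7a1 (0.26 to 0.44), and Epas1 (0.17 to 0.998), a hypoxia-inducible factor. All were higher in KO. For uptake, binding and activation, 8 of 17 genes were higher and 2 lower in male DMSO, 6 and 1 in female DMSO, 6 and 3 in male myelin and 4 and 2 in female myelin. For lysosomal and other lipolysis the counts were 4 higher and 0 lower of 11 in male DMSO, 1 and 2 in female DMSO, 6 and 0 in male myelin and 2 and 0 in female myelin. Of all tested genes 20.9%, 11.9%, 20.6% and 7.28% were called in these 4 comparisons. By direction, 11.6% were higher and 9.32% lower in male DMSO, and 5.42% and 6.48% in female DMSO. In male myelin 10.1% were higher and 10.6% lower, and in female myelin 3.80% and 3.48%. The KO counts of the remaining lists are not given here.

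Between the sexes directly, no member was called in WT, with DMSO (3.70% of all genes called) or with myelin (2.69%). In KO with DMSO, 2 members were lower in females, Plin2 (-0.17 ± 0.03) and Soat1 (-0.10 ± 0.03), beside 9.86% of all genes. In KO with myelin Plin2 (-0.14 ± 0.03) and Soat1 (-0.10 ± 0.03) were lower and Hilpda (0.17 ± 0.05) was higher in females, beside 8.45% of all genes. The sex difference of the myelin response was called for no member in WT (0.0415% of genes) or KO (0.0553%). With the covariates above, no member was called in either KO comparison between sexes. The Soat1 calls held in 6 of 12 alternatives with DMSO and 8 of 12 with myelin, and the Hilpda call in 6 of 12. Without male KO DMSO replicate 1, 1 member was called with DMSO, and without female KO myelin replicate 1 or male KO myelin replicate 2 or 3, 1 was called with myelin.

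The hippocampal libraries were examined for the same 10 genes in the presence of a TLR7 agonist or inhibitor. All 10 members passed the filter on low counts there, and none was called in any of 8 comparisons, which made 80 tests by edgeR. At an unadjusted p under 0.05 there were 12, and the smallest adjusted p was 0.118. The share of all tested genes called was 0.221% for gardiquimod in males, 0.0232% for gardiquimod in females, 0.00581% for the sex difference of that response and 0.430% for saline females against saline males. For the inhibitor it was 0.105% in males, 0.0876% in females, 2.41% for the sex difference and 0.0642% for control females against control males.

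The tissue had another make-up of droplet genes than the cultures. Mgll, which in brain is known for degrading the endocannabinoid 2-arachidonoylglycerol, made up 53.7% to 67.9% of the summed CPM of the 10 genes in WT hippocampus and 41.3% to 71.0% in PSUK+ hippocampus, against 0.735% to 2.17% in microglia. Plin2 made up 0.973% to 2.16% there. The 3 experiments were normalized separately, so levels are set side by side without a test. Dgat2, near the detection limit in microglia, was the second most abundant member in tissue, and the ratio of Dgat1 to Dgat2 was 0.133 to 0.301 over the 45 hippocampal libraries. G0s2, not tested in microglia, was at 3.75 to 8.68 CPM.

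**Figure D4:**
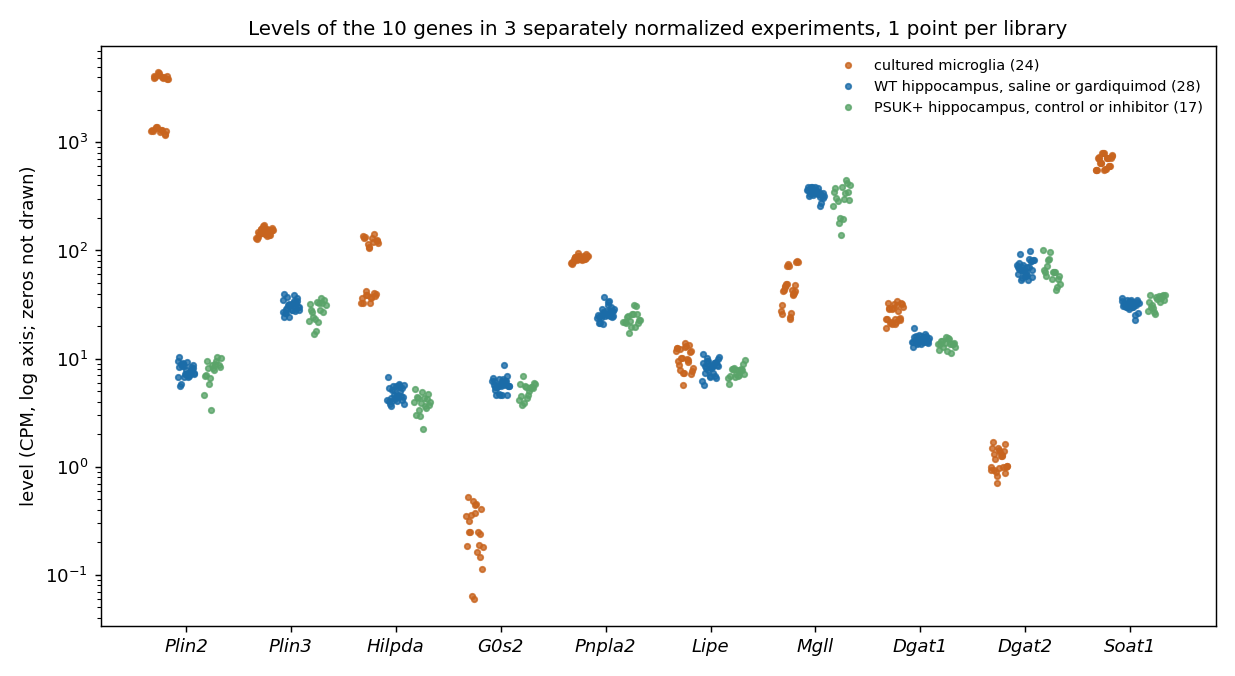
Level of each of the 10 genes (CPM, logarithmic axis) in 24 microglia libraries, 28 WT hippocampus libraries and 17 PSUK+ hippocampus libraries, 1 point per library, each experiment normalized on its own; the 3 microglia libraries with 0 reads of G0s2 are not drawn. Plin2 and Soat1 were the top members in microglia, Mgll and Dgat2 in hippocampus.

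No member was called with gardiquimod. Mgll in males had a lowest, median and highest value of 322, 362 and 390 CPM with saline and 325, 363 and 387 CPM with gardiquimod. In females these were 312, 341 and 376 CPM with saline and 256, 319 and 337 CPM with gardiquimod. The groups overlapped in both sexes, and the log2 differences were 0.01 ± 0.06 and -0.16 ± 0.06 (edgeR adjusted p 0.934 and 0.791). Plin2 gave 0.04 ± 0.11 in males and 0.08 ± 0.11 in females. Dgat2 gave -0.20 ± 0.11 in males, with medians of 70.4 CPM and 62.6 CPM, and 0.25 ± 0.11 in females, with medians of 62.8 CPM and 80.6 CPM. The sex difference of the Dgat2 response was 0.45 ± 0.15 (adjusted p 0.182). Pnpla2 had the smallest unadjusted p between saline females and males, at 25.2 to 33.9 CPM against 21.3 to 25.2 CPM (0.31 ± 0.09, adjusted p 0.155).

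In the PSUK+ hippocampus the spread was wider. Mgll was 260, 349 and 382 CPM in female controls and 200, 138, 389, 195 and 300 CPM in females with inhibitor. In male controls it was 306, 289 and 178 CPM, and with inhibitor the lowest, median and highest of 6 were 294, 374 and 452 CPM. The groups overlapped in both sexes. The log2 differences were -0.43 ± 0.26 in females and 0.54 ± 0.26 in males, and the sex difference of the response was -0.98 ± 0.37 (edgeR adjusted p 0.118). Without female inhibitor replicate 3, the highest female library, the Mgll sex difference was -1.19 with an adjusted p of 0.0216. Ttr differed between these groups as well: it was 17.6 to 1415 CPM in female controls, 3095 to 3349 CPM in male controls, 3534 to 4381 CPM in females with inhibitor and 52.9 to 4254 CPM in males with inhibitor. Astrocyte markers, all 7 detected, had mean sums of 9236 CPM in female controls and 6448 CPM in females with inhibitor, and of 6621 and 11210 CPM in males. Oligodendrocyte precursor markers, all 5 detected, had mean sums of 425 and 319 CPM in females and 340 and 473 CPM in males. The sex difference of the inhibitor response of Pdgfra was itself called (-0.60 ± 0.12, edgeR adjusted p 0.0237). The part of these transcripts in the Mgll values was not tested. With Ttr as a covariate, an alternative chosen after seeing the data, the Mgll sex difference was -1.04 (adjusted p 0.242). Ages also differed between these groups, and the Mgll sex difference was not called with age as a covariate.

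The other members gave smaller values with the inhibitor. Plin3 in males had a log2 difference of 0.48 ± 0.19, Dgat2 of -0.44 ± 0.18 and Soat1 of 0.28 ± 0.13, with adjusted p of 0.236, 0.246 and 0.266. Soat1 was the only member whose male groups did not overlap, at 29.4 to 31.1 CPM in controls and 33.7 to 39.1 CPM with inhibitor, where 10.7% of all genes had groups that do not overlap. Plin2 gave 0.26 ± 0.23 in males and 0.16 ± 0.24 in females, and Hilpda -0.02 ± 0.22 and -0.18 ± 0.23. Differences of the size found for Soat1 and Plin3 between genotypes in microglia were not detectable with these errors.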

How the data were processed

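RNA was measured in 69 mouse libraries with a QuantSeq 3′ kit, per the labels' protocols. The authors deposited 3 tables of raw counts per gene. The submitters' processing notes name GRCm38, mm10 and DESeq2 1.38.3, and no aligner, counting tool or strand setting was stated there. Gene positions equalled those of GENCODE M21 for 98.3% of 54409 shared identifiers.

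The members and all lists were chosen with earlier results of these data known. Each experiment was fitted alone with edgeR 4.0.16 (R 4.3.3): filterByExpr, TMM, 1 mean per group, robust quasi-likelihood tests, Benjamini-Hochberg adjustment over all tested genes (14468, 17218 and 17128), calls at an adjusted p under 0.05. Standard errors came from the log2 fold change and its F statistic. The procedure was tested on simulated counts drawn independently for each library, which do not model shared cultures or transcripts of other cells. No replicate libraries agreed within sampling noise. Pathway genes named were called in all 4 comparisons in 1 direction at a mean of at least 4 CPM, at most 4 per list for myelin and 2 for KO, by size. Alternatives were DESeq2 1.42.0, its size factors, no filter, only the groups compared, a replicate block, covariates (Ttr and Pdgfra, Ttr, age) and leaving out each library.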

Additional observations from a re-analysis of the deposited data

Results flagged for a closer look

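The myelin response of Hilpda differed between KO and WT in males. The difference of the log2 responses was -0.52, and it stands here because a test of that difference passed. In females it was -0.25 ± 0.08 and not called, and whether the sexes differ in it was not tested. The same kind of test, applied to the sex difference of the KO effect, passed with DMSO for Plin2 (-0.18), Plin3 (-0.22) and Soat1 (-0.12), and with myelin for Plin2 (-0.13) and Plin3 (-0.19). In each of these 5 the KO libraries stood higher against WT in males than in females. Choroid plexus transcripts moved with the same groups, from a Ttr mean of 179 CPM in male WT to 10.3 CPM in male KO with DMSO, against 115 and 199 CPM in females. In males neither Ttr nor Pdgfra overlapped between WT and KO, so a fit with both as covariates cannot separate them from genotype. With Ttr and Pdgfra as covariates none of these 5 was called. Plin3 was then -0.18 with DMSO and -0.15 with myelin, Plin2 -0.08 and -0.03, and Soat1 with DMSO 0.0064. The Hilpda difference was called.

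In 2 hippocampal groups a library stood apart from the others. Plin2 was 9.28 CPM in female saline replicate 2 and 6.81 to 7.52 CPM in the other 6. Dgat1 was 11.2 CPM in PSUK+ male inhibitor replicate 2 and 12.9 to 13.9 CPM in the other 5. Among 60 combinations of gene and group examined this way, chance alone gives about 3 of this kind, 1 in 20.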

How the results depend on the processing

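Of 58 member values called, 732 alternative values were computed: 632 kept direction and call, 98 kept direction but lost the call and 2 changed sign. Of 175 values called in no fit, 77 changed sign somewhere. The 120 values of named pathway genes kept their direction in all 1440 alternatives and lost the call in 50. With Ttr and Pdgfra as covariates, 7, 7, 6 and 5 members were called for myelin, and the members called went to 1 for KO in male DMSO and 1 in male myelin, and to 0 for the sex difference of the KO effect with DMSO, 0 with myelin, 0 for females against males in KO with DMSO and 0 with myelin. In that fit Plin2 in male DMSO KO was -0.011 and the sex difference of the KO effect of Soat1 with DMSO 0.0064. The male WT and KO libraries did not overlap in either covariate, so that fit cannot separate the covariates from genotype. These counts are given without the share of all genes called in that fit, so they are not read as particular to the members. Without the filter, 1 member (Hilpda) was called for the genotype difference of the female myelin response, and 1 for females against males in KO DMSO, as with only those groups in the fit.

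Leaving out 1 library gave 3 to 5 members for KO in male DMSO (3 without male KO DMSO replicate 1), 1 to 2 in female myelin (2 without female WT myelin replicate 2) and 0 to 1 for the female genotype difference of the response (1 without that library). It gave 0 to 3 for the sex difference of the KO effect with myelin: 0 without female WT myelin replicate 1 or male KO myelin replicate 2, and 1 without male WT myelin replicate 3. For females against males in KO it gave 1 to 3 with DMSO (1 without male KO DMSO replicate 1) and 1 to 3 with myelin (1 without female KO myelin replicate 1 or male KO myelin replicate 2 or 3). For the sex difference of the inhibitor response it gave 0 to 1 (Mgll, without female inhibitor replicate 3). The cause was not tested.

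Of 12 same-numbered pairs of microglia libraries of 1 sex and genotype, the 3 of female KO deviated together (r 0.442, 0.214 and 0.116). The other 9 had r under 0.1. Different-numbered pairs of 1 sex and genotype gave 1 of 24 above 0.1. Across sex or genotype, r was above 0.1 in 6 of 72 same-numbered pairs and in 0 of 144 different-numbered pairs. Libraries of the same number were thus alike more often than others, and what the numbers stand for is not stated. The replicate block left every count of members called in microglia as it was, such as 8, 7, 8 and 7 for myelin and 6, 3, 7 and 1 for KO. That block fits 1 effect per number over all groups, so it does not model pairing within female KO alone. DMSO and myelin libraries of female KO were tested as independent. No paired analysis was possible in the hippocampus because its labels carry no such numbers. Depth limits Dgat2 and G0s2 in microglia.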

Other observations

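Plin1, the perilipin of fat cells, is not among the 10 genes and was looked at after its values were seen. Its group means were 0.04 to 0.13 CPM in the 4 DMSO groups and 0.42 to 1.104 CPM in the 4 myelin groups. Plin4 and Plin5 stayed at group means of 0.27 CPM or less in every microglia group. In the WT hippocampus Plin4 had group means of 5.11 CPM in saline males, 7.61 CPM in gardiquimod males, 20.8 CPM in saline females and 14.2 CPM in gardiquimod females, where males and females also differed in age.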
